A study of Mus musculus with 12 samples.

Results

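The comparison described here is the difference, between cells of 18-month-old and 3-month-old mice, in how gene expression responded to Mef2c, Gata4 and Tbx5 (MGT). It was taken from every gene of the count table, as the log2 change from LacZ to MGT in aged (18-month) cells minus the same change in adult (3-month) cells. Of 16383 listed genes, 11940 had enough counts to be tested. The study placed a LacZ control vector or MGT into wild-type primary mouse cardiac fibroblasts, collected RNA on day 3, and asked why reprogramming is hindered in adult and aged fibroblasts. The 4 groups were LacZ adult, MGT adult, LacZ aged and MGT aged, with 2 libraries each, so 8 of the 12 libraries of the series enter the contrast. The other 4, from neonatal cells, entered the choice of tested genes, the scaling and the estimate of the spread, and serve as a side reference.

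MEF2C, GATA4 and TBX5 are transcription factors of the developing heart, and together they can push a fibroblast towards a cardiomyocyte-like state. Fibroblasts sense viral nucleic acid and interferon through a pathway whose last factors include STAT2 and IRF9, which act at a short DNA element in the promoters of antiviral genes. They also build the collagen and elastin matrix of the heart, and they make cholesterol by a pathway whose genes share the regulator SREBF2. Of the gene lists examined, those for antiviral, cholesterol and matrix genes held the largest numbers of genes whose adult and aged responses differed.

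The 8 libraries had column sums of 12553883 to 15200619 counts. Both LacZ adult libraries differed from each other by more than any other pair, with a chi-square over degrees of freedom at 21.2 against 4.11 in LacZ aged, 3.03 in MGT adult and 7.41 in MGT aged. The labels do not say whether libraries of a group come from separate animals or cultures, so a p-value reflects only how far these libraries vary, which may be technical. Age and cell preparation cannot be told apart, and in these bulk samples a change in the share of a cell type and a change in RNA per cell cannot be told apart either. The summed CPM (counts scaled to a common library size) of 8 fibroblast markers was 15829 to 16790 in LacZ adult, 12868 to 13680 in MGT adult, 8366 to 9434 in LacZ aged and 9976 to 11440 in MGT aged. Most of it was Col1a1, Col1a2 and Col3a1. In aged cells Col1a1 measured 2592 and 2933 CPM with LacZ and 4100 and 5232 with MGT, and Col1a2 was also higher with MGT. Pdgfra (608 and 686, then 450 and 459), Tcf21, Col3a1 and Ddr2 were lower with MGT there, and Dcn and Lum overlapped. Ddr2 was higher in LacZ aged (453 and 483) than in LacZ adult libraries (399 and 314). Cardiomyocyte markers summed to at most 6.25 CPM under LacZ and at least 310 CPM under MGT at both ages. Most of the MGT sum was Tnnt2 (249 to 315 CPM), and Ttn and Ryr2 also rose. The other markers did not rise as a set: over the 8 libraries Myh6 was at most 0.126, Myl2 at most 0.394 and Tnni3 at most 0.868 CPM. Smooth muscle and pericyte markers summed to 28.4 to 40.8 CPM in LacZ adult and 30.3 to 30.5 in MGT adult libraries. Their sums were 57.7 to 60.4 in LacZ aged and 67.8 to 68.3 in MGT aged libraries, higher in aged cells under both vectors. Under LacZ this came from Myh11 (2.17 and 1.13 CPM in adult, 13.8 and 16.1 in aged) and Cnn1 (6.39 and 7.77, then 23.9 and 21.8). Notch3 (31.0 and 18.3, then 18.9 and 21.6), Rgs5 (0.894 and 0.958, then 0.867 and 0.805) and Abcc9 (0.319 and 0.282, then 0.231 and 0.0619) were not higher in aged LacZ cells. Epicardial and mesothelial markers summed to 7.6 to 8.45 CPM in LacZ adult and 51.8 to 56.5 in MGT adult libraries. Their sums were 12.3 to 13.8 in LacZ aged and 43.9 to 50.9 in MGT aged libraries, higher with MGT at both ages. Upk1b made up most of the MGT sums (30.9 and 36.6 CPM in adult, 26.6 and 30.8 in aged cells), and Krt19 also rose. Upk3b was lower with MGT, at 1.92 and 1.63 CPM in LacZ adult and 0.682 and 0.623 in MGT adult libraries. In aged cells Upk3b was 1.73 and 1.92 CPM with LacZ and 1.51 and 1.45 with MGT. Wt1 was at most 0.252 CPM in the 8 libraries. The part of these cell types in the results was not tested.

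Promoters of 3 antiviral genes whose responses differed are shown first, since this group gave the largest number of differences. They run from 250 bases before to 50 after the start of the gene (RefSeq, GRCm38.p6), 5′ to 3′ on the gene's strand, and the capitals mark the core of the interferon-stimulated response element, GAAANNGAAA on either strand. Gbp7 lies at chr3:142530086-142530385 (plus strand), Cxcl10 at chr5:92348840-92349139 (minus strand) and Rsad2 at chr12:26456403-26456702 (minus strand).
Gbp7: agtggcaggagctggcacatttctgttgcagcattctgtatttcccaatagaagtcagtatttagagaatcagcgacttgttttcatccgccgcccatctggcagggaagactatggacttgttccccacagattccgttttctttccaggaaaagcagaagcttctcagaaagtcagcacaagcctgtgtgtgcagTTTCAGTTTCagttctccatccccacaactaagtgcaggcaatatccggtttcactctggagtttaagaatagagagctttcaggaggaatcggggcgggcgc
Cxcl10: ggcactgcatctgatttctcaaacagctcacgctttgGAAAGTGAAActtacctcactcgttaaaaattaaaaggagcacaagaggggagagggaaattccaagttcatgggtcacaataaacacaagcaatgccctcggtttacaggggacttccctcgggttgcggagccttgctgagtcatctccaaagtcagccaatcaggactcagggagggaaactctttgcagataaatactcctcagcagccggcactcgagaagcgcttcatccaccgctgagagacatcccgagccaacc
Rsad2: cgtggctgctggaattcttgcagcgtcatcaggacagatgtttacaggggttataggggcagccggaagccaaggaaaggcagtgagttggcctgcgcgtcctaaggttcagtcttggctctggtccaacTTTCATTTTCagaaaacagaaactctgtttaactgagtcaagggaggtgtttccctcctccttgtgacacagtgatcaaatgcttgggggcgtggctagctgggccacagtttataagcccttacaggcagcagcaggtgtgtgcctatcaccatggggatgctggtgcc
The core begins 53 bases before the start of Gbp7, 213 before that of Cxcl10 and 120 before that of Rsad2. It was present in 24 of 177 promoters (13.6%) of genes whose response was higher in aged cells, in 3 of 91 (3.30%) of those whose response was lower, and in 350 of 12163 (2.88%) over all tested genes. These promoters belong to 143 of the 201 higher, 65 of the 83 lower and 9427 of the 11940 tested genes, the ones with a promoter in the RefSeq table. Within the antiviral list it was present in 9 of 27 promoters of called genes and in 10 of 29 of the others. Promoters of Cmpk2 and Tap1, which are named below, hold no match in this window. Of the other motifs searched on both strands, the GATA core GATAA was in 14.7% of promoters of higher, 18.7% of lower and 16.4% of all tested genes, and the T-box element AGGTGT in 7.91%, 7.69% and 10.8%. The AP-1 site TGANTCA was in 10.2%, 13.2% and 5.49%, the NR4A site AAAGGTCA in 0%, 1.10% and 0.937%, and the MEF2 core in 0.565%, 1.10% and 0.427%. A match is a description of letters and was not tested as a binding site.

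The response to MGT differed between ages in 284 genes: 201 were higher in aged cells (1.68% of those tested) and 83 were lower (0.695%), by edgeR's quasi-likelihood test at a Benjamini-Hochberg adjusted p below 0.05. A higher response means that a gene rose more, fell less, or rose instead of falling. The difference was at least 2-fold in 75 and 28 of them, and over the 284 its median size was 0.87 on the log2 scale (0.43 to 4.27). Over all tested genes the median difference was -0.00085, with quartiles of -0.17 and 0.20. The number of calls moved with single libraries. It was 705 without LacZ adult replicate 1 and 815 without replicate 2, of which 269 and 277 were among the 284. It was 110 without LacZ aged replicate 1, 275 without LacZ aged replicate 2, 114 and 173 without MGT adult replicate 1 or 2, and 203 and 129 without MGT aged replicate 1 or 2. Each of the 284 kept its sign in every alternative, but the alternatives reuse the same libraries, so this is no independent check.

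Most of the 201 genes fell in adult cells and did not in aged ones. In adult cells 161 of them fell and 9 rose, while in aged cells 19 fell, 56 rose and 126 were not called. Over all tested genes 9.35% fell and 11.0% rose in adult cells, and 8.25% fell and 10.6% rose in aged cells. These values belong to the contrast itself and describe its shape. A total of 16 genes fell in adult and rose in aged cells, and 31 rose in aged cells without a call in adult ones. Of the 83 genes with a lower response, 69 rose in adult cells and none fell, whereas in aged cells 45 rose, 13 fell and 25 were not called.

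**Figure D1:**
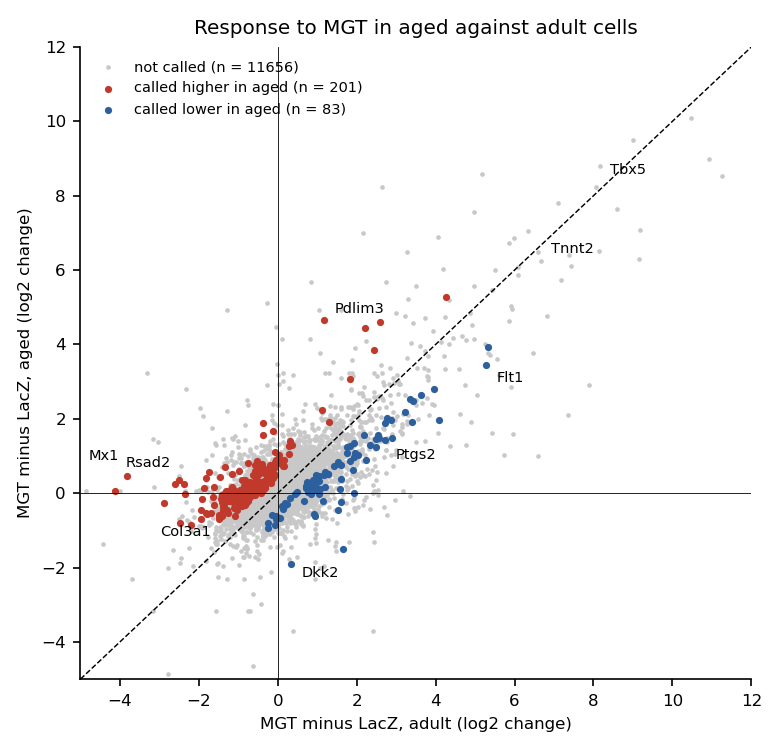
Log2 change from LacZ to MGT in adult cells (x axis) and aged cells (y axis) for each of the 11940 tested genes, with the 201 genes whose response was higher in aged cells in red and the 83 lower ones in blue. The dashed line marks equal responses; most red points lie left of 0 and near 0 in height, and most blue points lie right of 0.

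Most of these genes already differed between ages without MGT. Under LacZ, 169 of the 201 genes were lower in aged than in adult cells, against 14.0% of all tested genes, and 4 were higher. Under MGT, 82 were lower and 43 higher in aged cells, against 10.0% and 9.80% of all tested genes, and 76 were not called. The median aged-minus-adult log2 difference of the 201 was -1.12 under LacZ and -0.19 under MGT. The 83 genes mirrored this: 64 were higher in aged cells under LacZ, against 13.1% of all tested genes, with a median of 0.65, and 53 were not called under MGT (median -0.13). These contrasts share libraries with the response difference, so the values stand side by side and are not separate tests.

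Neonatal libraries took no part in the contrast. There, 81 of the 201 genes fell with MGT and 13 rose, where 4.02% and 5.22% of all tested genes did so. Of the 83, 38 rose and 6 fell. The median neonatal response was -0.30 for the 201 and 0.38 for the 83, between the adult and the aged median in both cases (-0.76 and 0.09, then 1.27 and 0.35). Both sets were chosen for adult and aged responses that lie apart, so a neonatal median between them can follow from that choice. Whether the neonatal response differs from the adult or the aged one was not tested here.

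**Figure D2:**
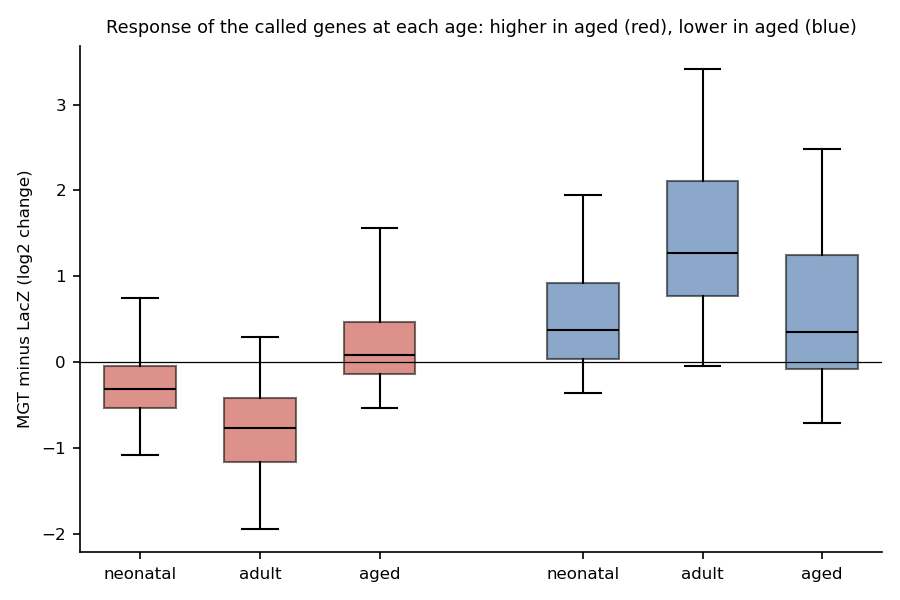
Log2 change from LacZ to MGT in neonatal, adult and aged cells for the 201 genes with a higher response in aged cells (red) and the 83 with a lower one (blue). Boxes span the quartiles with the median as a line and whiskers reach the 5th and 95th percentiles over genes. Neonatal medians are -0.30 and 0.38, each between those of the other ages, for which the genes were chosen to differ.

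Antiviral genes of the interferon response made up the largest group. Of 59 tested members, 26 (44.1%) had a higher response in aged cells and none a lower one, against 1.68% and 0.695% of all tested genes. All 59 differences were positive, with a median of 0.84. In adult cells 58 of the 59 fell with MGT (median -1.12), in aged cells 10 fell and 1 rose (median -0.23), and in neonatal cells 36 fell (median -0.50). All 59 were lower in aged than in adult LacZ cells (median -2.86), and 55 were still lower under MGT (median -1.83). The count of 26 was 37 and 38 without LacZ adult replicate 1 or 2, 13 and 42 without LacZ aged replicate 1 or 2, 16 and 18 without MGT adult replicate 1 or 2, 17 and 11 without MGT aged replicate 1 or 2, and 47 with no filter on low counts. Members fall in groups of near relatives (Oas, Ifit, Gbp and Mx genes) that can share reads.

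Rsad2, which encodes viperin, an enzyme that blocks viral RNA synthesis, had one of the larger differences of the group. The gene (ENSMUSG00000020641) occupies mm10 chromosome 12 from 26442746 to 26456452. Its level was 159 and 133 CPM in LacZ adult, 30.1 and 25.7 in MGT adult, 4.63 and 8.61 in LacZ aged, and 7.06 and 8.67 in MGT aged libraries. LacZ adult libraries stood far above all others, MGT lowered the level in adult cells, and the aged groups overlapped each other well below both. The log2 response was -2.38 ± 0.17 (SE) in adult cells (adjusted p = 3.6e-09) and 0.26 ± 0.24 in aged cells (adjusted p = 0.51), a difference of 2.64 ± 0.29 (edgeR, adjusted p = 9.4e-05). Cmpk2, a nucleotide kinase gene that lies next to it on chromosome 12, measured 53.5 and 63.3 CPM in LacZ adult, 11.2 and 11.8 in MGT adult, 1.68 and 4.71 in LacZ aged, and 3.28 and 2.89 in MGT aged libraries. Its adult groups were again apart and its aged groups overlapped (difference 2.31, edgeR adjusted p = 0.0025).

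The chemokine gene Cxcl10 (ENSMUSG00000034855, chromosome 5, 92346638 to 92348889), whose product attracts activated lymphocytes, measured 49.7 and 47.7 CPM in LacZ adult, 8.0 and 5.13 in MGT adult, 2.83 and 6.07 in LacZ aged, and 2.96 and 4.34 in MGT aged libraries. Adult groups were far apart and aged groups overlapped. The difference of 2.61 ± 0.42 (edgeR adjusted p = 0.0018) was not called without MGT aged replicate 2 (adjusted p = 0.075). Mx1, an antiviral GTPase gene, had the largest difference of all named genes at 4.27 ± 0.84 (edgeR adjusted p = 0.008), on 3 and 10 counts in the LacZ aged libraries and 10 and 7 in the MGT aged ones. Its call was lost without MGT aged replicate 1 or 2, and over the left-out libraries the difference ran from 3.60 to 5.40. Its relative Mx2 had a difference of 1.5 and was not called.

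Sensors and effectors both appear among the 26. Among the genes for signal transducers and interferon regulatory factors, Stat2 (0.75), Irf9 (0.44), Irf1 (0.79) and Irf7 (0.81) had positive differences and were not called. The double-stranded RNA sensor gene Tlr3 measured 72.5 and 66.4 CPM in LacZ adult, 37.3 and 36.9 in MGT adult, 16.1 and 17.7 in LacZ aged, and 22.7 and 20.3 in MGT aged libraries. None of its groups overlapped, and MGT libraries were lower in adult and higher in aged cells (difference 1.25, edgeR adjusted p = 0.00039). The cytosolic sensor genes Ifih1 (0.55) and Ddx58 (0.28) were not called. Effector genes with a call included Ifit1 (1.27), Isg15 (1.16), Oasl1 (1.30) and Gbp7 (1.36).

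Macrophages and lymphocytes also express such genes. Summed CPM of 6 macrophage markers was 75 to 81.9 in LacZ adult, 125.1 to 125.9 in MGT adult, 92.4 to 93.6 in LacZ aged and 131 to 132 in MGT aged libraries. No macrophage gene differed in response by edgeR among 18 tested (1 at an unadjusted p below 0.05, none by DESeq2 or limma-voom, and 1 lower without LacZ adult replicate 2). Over all tested genes 1.68% were higher and 0.695% lower in response, shares at which few calls would fall among 18 genes. Lymphocyte markers summed to at most 0.682 CPM in any of the 8 libraries and Cd3g was at 0 in all. The part of these cells in the antiviral differences was not tested.

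The differences called among complement and antigen presentation genes had the same direction. Of 17 tested, 7 (41.2%) had a higher response in aged cells and none a lower one (median 0.62), against 1.68% and 0.695% of all tested genes. In adult cells 7 fell and 1 rose (median -0.41), in aged cells 6 rose and 1 fell (median 0.21). Tap1, the peptide transporter gene of the class I pathway, which is counted in the antiviral list, measured 86.0 and 85.5 CPM in LacZ adult, 33.7 and 33.6 in MGT adult, 19 and 21.9 in LacZ aged, and 19.2 and 22.3 in MGT aged libraries. The fall in adult cells was many times the gap between libraries, and the aged groups overlapped (difference 1.37 ± 0.16, edgeR adjusted p = 0.00013). Its partner Tapbp, or tapasin, measured 230 and 265 CPM in LacZ adult, 199 and 192 in MGT adult, 72.6 and 69.6 in LacZ aged, and 98.8 and 108 in MGT aged libraries. Adult libraries were lower with MGT and aged ones higher, with no overlap (difference 0.88, edgeR adjusted p = 0.00066). The class I gene H2-Q4 (1.09, adjusted p = 0.001) and the complement protease gene C1s1 (0.96, adjusted p = 0.0035) were also called by edgeR in every alternative. H2-Q4 has close paralogues, so its reads may be shared. The 7 became 3 without LacZ aged replicate 1 or MGT adult replicate 1, and 4 without MGT aged replicate 2.

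**Figure D3:**
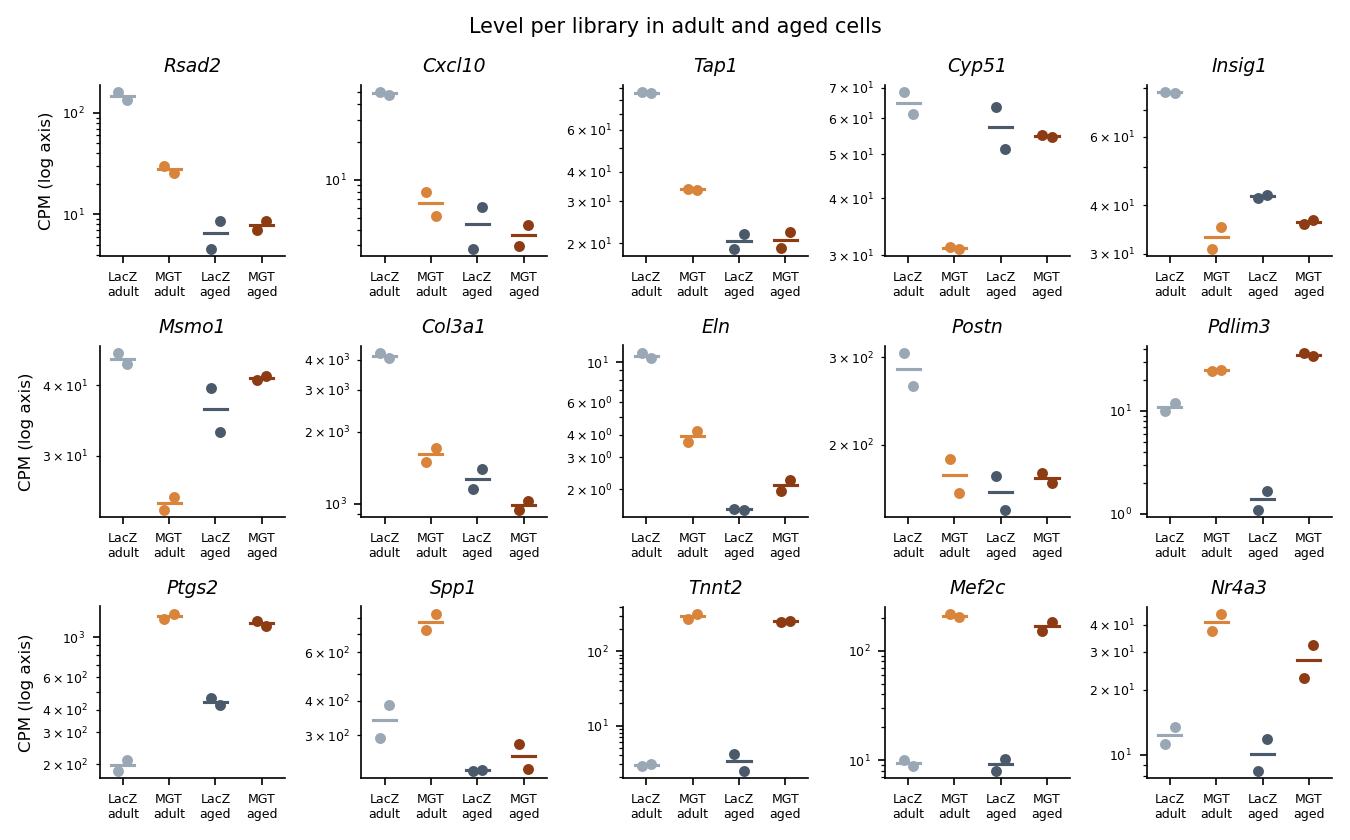
CPM per library on a log axis in LacZ adult, MGT adult, LacZ aged and MGT aged cells for 15 genes. Points are single libraries (n = 2 per group) and lines are group means; Rsad2, Cxcl10 and Tap1 fall with MGT in adult cells and start low in aged cells, Cyp51, Insig1 and Msmo1 are lowest in MGT adult cells, and Tnnt2 rises at both ages.

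Most genes of cholesterol synthesis and uptake fell with MGT in adult cells and were not called in aged cells. Of 20 tested members, 11 had a higher response in aged cells and none a lower one, against 1.68% and 0.695% of all tested genes. In this list 19 of 20 differences were positive (median 0.65). In adult cells 15 fell and none rose (median -0.61), and in aged cells 2 rose and 1 fell (median 0.10). Their LacZ levels were close at both ages: under LacZ 1 was higher and 3 were lower in aged cells (median -0.17), and under MGT 13 were higher and none lower (median 0.47). The 11 became 5 without LacZ aged replicate 1 or MGT adult replicate 1, 6 without replicate 2 of MGT adult or of MGT aged, and 7 without MGT aged replicate 1.

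The early step after lanosterol is carried out by CYP51, whose gene (ENSMUSG00000001467) lies on mm10 chromosome 5 from 4081145 to 4104746. Cyp51 measured 68.3 and 61.1 CPM in LacZ adult, 31.2 and 31.0 in MGT adult, 63.3 and 51.3 in LacZ aged, and 55 and 54.5 in MGT aged libraries. MGT adult libraries lay below all 6 others, which were close together. The response was -1.06 ± 0.10 in adult cells (adjusted p = 4.1e-07) and -0.07 ± 0.10 in aged cells (adjusted p = 0.70), a difference of 0.99 ± 0.15 (edgeR, adjusted p = 0.001). The sterol oxidase gene Msmo1 measured 45.6 and 43.6 CPM in LacZ adult, 24.1 and 25.3 in MGT adult, 39.5 and 33.0 in LacZ aged, and 41.0 and 41.5 in MGT aged libraries. Again the MGT adult libraries were the lowest (difference 1.04, edgeR adjusted p = 0.00062).

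Insig1, which holds the pathway's activator in the endoplasmic reticulum, measured 77.9 and 77.8 CPM in LacZ adult, 30.9 and 35.2 in MGT adult, 41.8 and 42.5 in LacZ aged, and 35.7 and 36.7 in MGT aged libraries. MGT libraries were the lower ones at both ages, with a smaller gap in aged cells (difference 1.02, edgeR adjusted p = 0.00091), where the LacZ level was lower too. The squalene epoxidase gene Sqle (0.64) and the regulator Srebf2 (0.61) were not called.

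**Figure D4:**
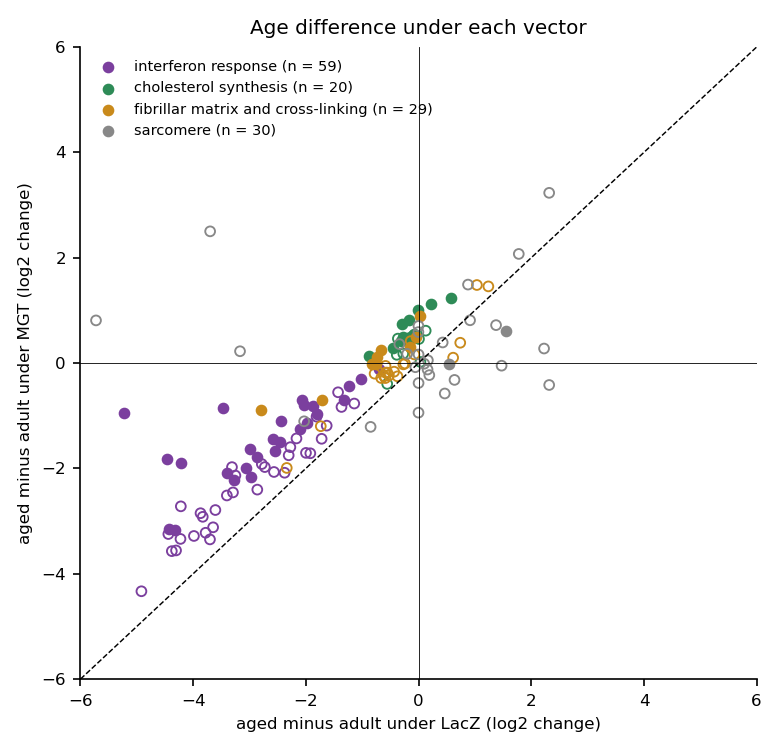
Aged-minus-adult log2 difference under LacZ (x axis) and under MGT (y axis) for members of 4 gene lists, with filled symbols for genes whose response differed. The height above the dashed line of equality is the response difference; antiviral genes lie below 0 on both axes and above the line, and cholesterol genes lie near 0 on the x axis and mostly above 0 on the y axis. Points of sarcomere genes without reads in a group are fitted values and no measure of size.

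Of 29 tested matrix genes for fibrillar collagens, elastin and cross-linking enzymes, 9 (31.0%) had a higher response in aged cells, none had a lower one and 20 were not called. Over all tested genes 1.68% were higher and 0.695% lower. Among the 29 matrix genes 27 differences were positive (median 0.40). In adult cells 16 fell and 5 rose (median -0.33), in aged cells 5 fell and 9 rose (median 0.15), and under LacZ 19 were lower and 4 higher in aged cells. The 9 became 18 without LacZ adult replicate 2, 4 without LacZ aged replicate 1 or MGT adult replicate 1, 5 without replicate 2 of MGT adult or of MGT aged, and 6 when only the 8 libraries were fitted.

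Type III collagen, a thin fibril of stretchable tissue, is encoded by Col3a1 (ENSMUSG00000026043, chromosome 1, 45311538 to 45349706). It measured 4262 and 4060 CPM in LacZ adult, 1496 and 1716 in MGT adult, 1146 and 1396 in LacZ aged, and 944 and 1021 in MGT aged libraries. LacZ adult libraries stood far above all others, and MGT lowered the gene at both ages with no overlap. The response was -1.37 ± 0.10 in adult cells (adjusted p = 1.1e-08) and -0.37 ± 0.10 in aged cells (adjusted p = 0.016), a difference of 1.00 ± 0.14 (edgeR, adjusted p = 0.00091). Elastin, Eln (ENSMUSG00000029675, chromosome 5, 134702593 to 134747323), measured 11.2 and 10.5 CPM in LacZ adult, 3.66 and 4.16 in MGT adult, 1.56 and 1.55 in LacZ aged, and 1.95 and 2.26 in MGT aged libraries. Adult libraries fell with MGT, and the aged MGT libraries lay just above the aged LacZ ones (difference 1.91 ± 0.31, edgeR adjusted p = 0.0019). Loxl2, a collagen cross-linker, measured 367 and 370 CPM in LacZ adult, 302 and 320 in MGT adult, 214 and 252 in LacZ aged, and 374 and 364 in MGT aged libraries. It was lower with MGT in adult and higher with MGT in aged cells, without overlap (difference 0.91, edgeR adjusted p = 0.00033).

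Periostin, Postn, a matrix protein of activated fibroblasts, measured 305 and 263 CPM in LacZ adult, 188 and 160 in MGT adult, 173 and 148 in LacZ aged, and 175 and 168 in MGT aged libraries. Only the LacZ adult libraries stood apart (difference 0.80, edgeR adjusted p = 0.0028). Type I collagen did not follow with a call: Col1a1 had a difference of 0.53 and Col1a2 of 0.36. For the count of fibroblast marker genes below, the shares over all tested genes were 1.68% higher and 0.695% lower. Among matrix-cutting enzymes Mmp3 (0.81), Mmp2 (0.84) and Mmp14 (0.58) had higher responses in aged cells, and Mmp14 lost its call without LacZ aged replicate 1, either MGT adult replicate or MGT aged replicate 2 (0.49 to 0.65 over the left-out libraries). Fibroblast marker genes were not uniform: 3 of 24 identity genes were higher (Col14a1, Col3a1 and Lum) and 2 were lower (Thy1 and S100a4), and among these all calls but that of Col3a1 were lost without LacZ aged replicate 1 (differences over the left-out libraries from 1.21 to 2.28, 0.74 to 1.14, -0.62 to -0.41 and -0.55 to -0.37 for Col14a1, Lum, Thy1 and S100a4).

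**Figure D5:**
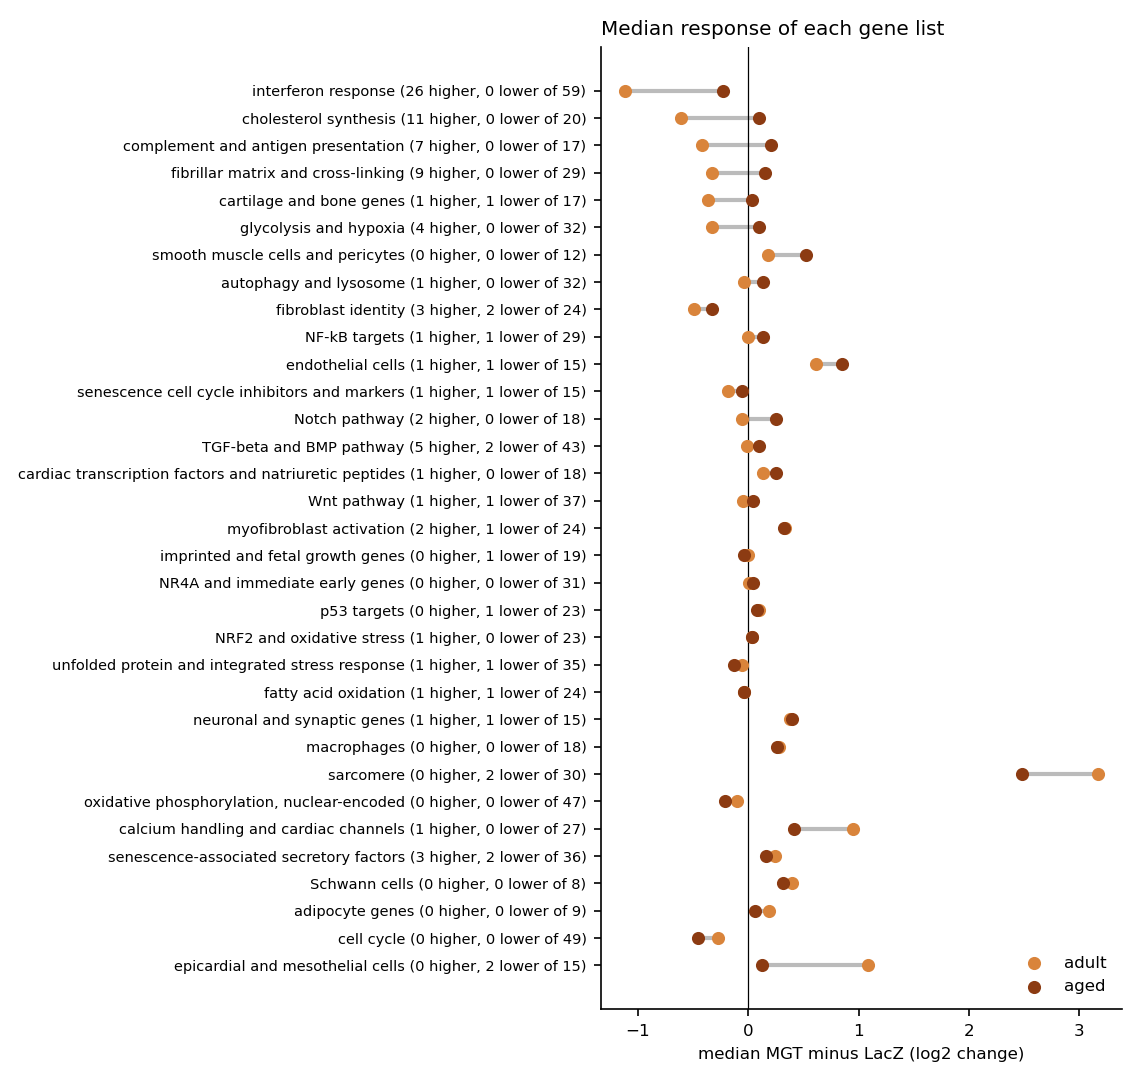
Median log2 change from LacZ to MGT in adult (orange) and aged (brown) cells over the tested members of each gene list with at least 8 of them, ordered by the median response difference; labels give how many members had a higher or lower response in aged cells. A member without reads in a group is placed at the limit of 3 counts per library; the antiviral medians are -1.12 and -0.23 and the cholesterol medians -0.61 and 0.10.

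Most sarcomere genes, which encode the contractile apparatus that reprogramming is meant to switch on, rose at both ages, 23 of 30 in adult and 22 of 30 in aged cells. Their response was lower in aged cells in 2 genes and higher in none, against 0.695% and 1.68% of all tested genes. The median difference was -0.11, counting members without any reads in a group at the limit of 3 counts per library. Their median response was then 3.17 in adult and 2.48 in aged cells, and 3.16 and 3.19 with the fitted values of those members. Cardiac troponin T, Tnnt2, measured 2.81 and 2.99 CPM in LacZ adult, 277 and 315 in MGT adult, 4.11 and 2.48 in LacZ aged, and 249 and 256 in MGT aged libraries. MGT libraries stood far above LacZ libraries at both ages, and the difference was -0.42 with a 95% interval of -1.11 to 0.27 (chosen after its values were seen). The Z-disc gene Ldb3 measured 3.19 and 3.38 CPM in LacZ adult, 34.7 and 35.8 in MGT adult, 10.2 and 9.10 in LacZ aged, and 49.3 and 58.9 in MGT aged libraries. Aged libraries were higher than adult ones under both vectors, and more so under LacZ (difference -0.94, edgeR adjusted p = 0.024). Hspb7, a small heat shock protein gene of the heart, had a difference of -0.56 (edgeR adjusted p = 0.021). Both calls were lost without LacZ aged replicate 1, either MGT adult replicate or MGT aged replicate 1, with differences of -1.08 to -0.82 and -0.65 to -0.48.

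The muscle gene Pdlim3, whose LIM protein binds alpha-actinin at the Z-disc, went the other way and had the second largest difference among the named genes that were called. The gene (ENSMUSG00000031636) occupies mm10 chromosome 8 from 45885461 to 45919548. Its level was 9.96 and 11.8 CPM in LacZ adult, 24.4 and 25.1 in MGT adult, 1.10 and 1.67 in LacZ aged, and 36.2 and 34.3 in MGT aged libraries. The aged LacZ libraries were the lowest and the aged MGT libraries the highest. The response was 1.18 ± 0.18 in adult cells (adjusted p = 8.3e-05) and 4.67 ± 0.25 in aged cells (adjusted p = 8.2e-11), a difference of 3.49 ± 0.33 (edgeR, adjusted p = 2.2e-05). Of 27 calcium handling and cardiac channel genes 1 was called higher, the exchanger gene Slc8a1 (0.78). Of 18 cardiac transcription factor and natriuretic peptide genes 1 was called higher, Tbx20 (0.77). No member of these lists was called lower, and over all tested genes 1.68% were higher and 0.695% lower in response. Slc8a1 lost its call without either aged LacZ library or any MGT library (0.51 to 0.99), and Tbx20 without LacZ aged replicate 1 or MGT adult replicate 1 (0.62 to 0.93).

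No response difference was called for the delivered factors themselves. Mef2c measured 214 and 201 CPM in MGT adult and 151 and 181 in MGT aged libraries, and its difference was -0.27 with a 95% interval of -0.69 to 0.14. Between the MGT libraries alone its level was lower in aged cells (log2 difference -0.32, edgeR adjusted p = 0.046). Tbx5 measured 289 and 279, then 244 and 299 CPM, with a difference of 0.65 (-0.31 to 1.61). Gata4 measured 239 and 236, then 217 and 251 CPM, with a difference of 0.08 (-0.18 to 0.34). For these 3 genes the counts do not separate vector-derived from endogenous RNA.

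Nr4a3, a nuclear receptor gene that was to be named whatever its values, rose at both ages. It measured 11.2 and 13.4 CPM in LacZ adult, 37.6 and 44.8 in MGT adult, 8.44 and 11.8 in LacZ aged, and 22.7 and 32.2 in MGT aged libraries. MGT libraries lay above LacZ libraries at each age, and the response difference was -0.29 with a 95% interval of -0.82 to 0.24 (edgeR adjusted p = 0.69). Of 31 NR4A and immediate early genes none was called by edgeR, where 1.68% of all tested genes were higher and 0.695% lower in response. The count was 6 at an unadjusted p below 0.05, and DESeq2 called 1 higher and 1 lower and limma-voom none.

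Senescence and secretory genes split, where 1.68% of all tested genes were higher and 0.695% lower in response. Of 15 senescence markers Plaur, the urokinase receptor gene, was lower and Igfbp7 higher. Plaur measured 46.6 and 52.7 CPM in LacZ adult, 123 and 117 in MGT adult, 110 and 90.5 in LacZ aged, and 143 and 142 in MGT aged libraries. Aged LacZ libraries already stood near the adult MGT level (difference -0.77, edgeR adjusted p = 0.0036). Igfbp7 (0.54) lost its call without any one of the aged or MGT libraries (0.35 to 0.69). Of 36 secretory factors 3 were higher and 2 lower. Osteopontin, Spp1, measured 294 and 385 CPM in LacZ adult, 726 and 825 in MGT adult, 223 and 224 in LacZ aged, and 277 and 226 in MGT aged libraries. It rose in adult cells and was not called in aged ones (difference -1.02 ± 0.17, edgeR adjusted p = 0.0022). The prostaglandin synthase gene Ptgs2 (ENSMUSG00000032487, chromosome 1, 150100031 to 150108227) measured 185 and 211 CPM in LacZ adult, 1263 and 1332 in MGT adult, 460 and 421 in LacZ aged, and 1224 and 1151 in MGT aged libraries. It rose at both ages to similar MGT levels from a higher aged LacZ level (difference -1.28 ± 0.15, edgeR adjusted p = 0.00021).

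With MGT, 9.35% of all tested genes fell in adult and 8.25% in aged cells. The response difference was called higher in 1.68% and lower in 0.695% of all tested genes. Of 49 tested cell cycle genes, 21 fell in adult and 39 fell in aged cells, and none rose. Their response differences were negative in 45 (median -0.20) and none was called by edgeR, DESeq2 or limma-voom, with 12 at an unadjusted p below 0.05. Without LacZ adult replicate 1 or 2, 3 and 4 were called lower. Top2a, the topoisomerase gene of dividing cells, had a difference of -0.26 with a 95% interval of -0.53 to 0.01. Among 47 nuclear-encoded oxidative phosphorylation genes 16 fell in aged cells and 1 in adult cells, and no response difference was called by edgeR, DESeq2 or limma-voom, with 4 at an unadjusted p below 0.05. Without LacZ adult replicate 2, 10 of them were called lower.

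Signalling and metabolic genes gave scattered calls, where 1.68% of all tested genes were higher and 0.695% lower in response. Dkk2, a secreted Wnt modulator gene (ENSMUSG00000028031, chromosome 3, 132085292 to 132180304), measured 2.75 and 2.08 CPM in LacZ adult, 3.60 and 2.42 in MGT adult, 8.96 and 8.05 in LacZ aged, and 2.21 and 2.33 in MGT aged libraries. Only the aged LacZ libraries were high, and the difference was -2.24 ± 0.34 (edgeR adjusted p = 0.001). Of 43 TGF-β and BMP pathway genes 5 were higher and 2 lower, of which Bmp6 (0.72, adjusted p = 0.005) held in every alternative. The 5 became 1 without MGT adult replicate 1 and 2 without LacZ aged replicate 1 or MGT aged replicate 2. Of 32 glycolysis and hypoxia genes 4 were higher, led by Ndufa4l2 (2.85), whose call was lost without MGT aged replicate 1 or 2 (2.68 to 3.04 over the left-out libraries). Those 4 became 1 without MGT adult replicate 1 or either MGT aged replicate. Lpl, which releases fatty acids from blood lipids, measured 354 and 269 CPM in LacZ adult, 141 and 137 in MGT adult, 123 and 139 in LacZ aged, and 203 and 172 in MGT aged libraries. It fell in adult and rose in aged cells (difference 1.68 ± 0.17, edgeR adjusted p = 2.9e-05).

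The gene of haptoglobin, Hp, a haemoglobin-binding plasma protein, measured 177 and 191 CPM in LacZ adult, 118 and 168 in MGT adult, 4.34 and 6.25 in LacZ aged, and 19.2 and 19.9 in MGT aged libraries. Aged libraries were far below adult ones under both vectors, and MGT libraries were well above LacZ ones in aged cells (difference 2.26 ± 0.23, edgeR adjusted p = 2.9e-05; the adult response of -0.37 had an adjusted p of 0.047). Serum amyloid A3, Saa3, which is in the NF-kB target list (1 of 29 higher and 1 lower), measured 96.6 and 103 CPM in LacZ adult, 437 and 640 in MGT adult, 7.69 and 8.05 in LacZ aged, and 107 and 121 in MGT aged libraries. It rose at both ages, by more in aged cells (difference 1.43 ± 0.23, edgeR adjusted p = 0.0021). For the NF-kB list count, the shares over all tested genes were 1.68% higher and 0.695% lower.

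Many of the other large differences were in genes of low level. Among the 12 largest higher responses were Ggt5, a gamma-glutamyltransferase gene (2.84), the Toll-like receptor modulator gene Tril (2.30), the antiviral signalling gene Trim14 (2.23), the serpin gene Serpina3h (2.23) and Gm12185 (2.05). Among the 12 largest lower responses were the acetylcholine receptor gene Chrna7 (-2.11), the RANK ligand gene Tnfsf11 (-1.99), Nol4 (-1.94), the Notch-related gene Dlk2 (-1.83), the repressor gene Bcl6b (-1.56), Sprr2h (-1.49), the desmosome gene Dsc2 (-1.48), C1ql3 (-1.40) and the uroplakin gene Upk1b (-1.39). Serpina3h measured 3.64 and 2.59 CPM in LacZ adult, 14.9 and 13.9 in MGT adult, 0.116 and 0.434 in LacZ aged, and 5.04 and 7.04 in MGT aged libraries. MGT libraries were higher at both ages, from a lower start in aged cells. Each of these 14 genes lost its call in 3 to 7 of the 8 left-out libraries while keeping its sign, with differences of 1.55 to 3.40 for the higher and -2.57 to -1.13 for the lower ones. Ahrr, the repressor gene of the aryl hydrocarbon receptor, measured 2.36 and 2.59 CPM in LacZ adult, 7.07 and 7.69 in MGT adult, 11.7 and 11.0 in LacZ aged, and 10.4 and 14.0 in MGT aged libraries. Only its LacZ adult libraries were low, and its difference of -1.46 was called in every alternative (edgeR adjusted p = 0.0045).

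Rasl11b and Ctsc, which are in no list, are among the genes with the 15 smallest p-values, a choice made after the values were seen. Rasl11b, a small GTPase-like gene, measured 27.7 and 31.0 CPM in LacZ adult, 26.3 and 27.6 in MGT adult, 7.23 and 7.43 in LacZ aged, and 20.9 and 26.3 in MGT aged libraries. Only the aged LacZ libraries were low (difference 1.81, edgeR adjusted p = 2.2e-05). The lysosomal protease gene Ctsc measured 19.7 and 22.4 CPM in LacZ adult, 95 and 105 in MGT adult, 17.4 and 18.3 in LacZ aged, and 35.2 and 31.4 in MGT aged libraries. It rose at both ages, less in aged cells (difference -1.34, edgeR adjusted p = 0.00015). Of 19 imprinted and fetal growth genes, the zinc finger gene Peg3 alone was called in response; it measured 30.0 and 25.3 CPM in LacZ adult, 83.1 and 85.8 in MGT adult, 22.5 and 30.6 in LacZ aged, and 34.2 and 35.2 in MGT aged libraries. It rose strongly in adult cells and slightly in aged cells (difference -1.23, edgeR adjusted p = 0.00074). Among all tested genes 1.68% were higher and 0.695% lower in response. Of 15 endothelial genes 1 was lower and 1 higher in response, and 8 of the 15 differences were positive. The lower one, the VEGF receptor gene Flt1, measured 1.60 and 1.47 CPM in LacZ adult, 63.5 and 54.9 in MGT adult, 2.20 and 1.61 in LacZ aged, and 23.8 and 18.0 in MGT aged libraries. Its difference of -1.82 was not called without LacZ aged replicate 1. The summed endothelial markers ran from 18.4 to 34.7 CPM over the 8 libraries, and Tek made up most of each sum. In adult cells Tek measured 26.4 and 23.9 CPM with LacZ and 17.1 and 16.5 with MGT. Pecam1 (2.36 and 3.04, then 6.33 and 3.88), Cdh5, Tie1 and Vwf were above their LacZ levels with MGT there. The higher one, the angiopoietin receptor gene Tek (0.87, edgeR adjusted p = 0.026), lost its call without LacZ aged replicate 1 or any MGT library (0.72 to 1.04). Of 15 epicardial and mesothelial genes, Upk1b and the keratin gene Krt19 (-1.01) had a lower response in aged cells and none a higher one. Krt19 lost its call without any library other than LacZ adult replicate 2 (-1.20 to -0.87), and Upk1b without replicate 2 of LacZ adult, LacZ aged or MGT adult or replicate 1 of MGT aged (-1.60 to -1.17). In all, 100 of the 284 genes belong to one of the 37 lists and 184 to none.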

How the data were processed

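Per the file headers, the authors deposited 1 table with raw counts for every gene in each library beside FPKM, fragments scaled by exon length and library total. Per the submitters' processing notes, reads were trimmed with Trimmomatic 0.36, counted with featureCounts of Subread 1.5.1, and build mm10 was used. No aligner, annotation release or strand setting is given in the sources used here, so overlapping and antisense genes may share counts. The table ends at ENSMUSG00000057457, and later identifiers were not used here. RNA was depleted of ribosomal RNA, per the labels' protocols, while the molecule field names polyadenylated RNA. The titles all name MGT, so the vector was read from the start of the title, which matches the treatment field.

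Library totals were recovered from counts and FPKM (genes at an FPKM of at least 20), at 14489848 to 17576303 over the 8 libraries, and used with TMM factors for CPM. A count of 0 in a library allows 3 counts, or 0.169 to 0.208 CPM, for counting error only. In R 4.3.3, edgeR 4.0.16 fitted 6 group means over 12 libraries, after filterByExpr, with 6 residual degrees of freedom, a prior of 12.1 and a biological coefficient of variation of 7.42%. All adjusted p-values come from its quasi-likelihood F-test with Benjamini-Hochberg adjustment over the 11940 genes, called below 0.05. SE is the absolute log2 change over the square root of F.

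Named genes were the 12 largest differences in each direction (called, mean of at least 1 CPM, all 4 aged library pairings on one side of the 4 adult ones), up to 6 called members of each of 37 lists (else the 2 most abundant), Nr4a3 and the delivered factors. The lists and rule were chosen with earlier results of these data known. Results for some single genes are not reported here. Alternatives were DESeq2 1.42.0, limma-voom 3.58.1, other scalings and filters, fewer samples, a replicate block and each library left out.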

Additional observations from a re-analysis of the deposited data

Results flagged for a closer look

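The response to MGT differed between ages, by the test of the difference itself, in 201 genes with a higher and 83 with a lower response in aged cells. Among the genes named by rule or by the smallest p-values, 37 were called in every alternative, and those reported are given here. On the log2 scale, the antiviral and antigen presentation genes gave 2.64 for Rsad2, 2.31 for Cmpk2, 1.37 for Tap1, 1.25 for Tlr3, 1.09 for H2-Q4, 0.88 for Tapbp, 0.96 for C1s1 and 2.02 for the chemokine gene Ccl8. Sterol genes gave 1.04 for Msmo1, 1.02 for Insig1 and 0.99 for Cyp51. Matrix genes gave 1.91 for Eln, 1.00 for Col3a1, 0.91 for Loxl2, 0.80 for Postn, 0.84 for Mmp2 and 0.81 for Mmp3. Other higher responses were 3.49 for Pdlim3, 2.26 for Hp, 1.81 for Rasl11b, 1.68 for Lpl, 1.49 for Cygb, 1.43 for Saa3, 1.00 for Gas6, 0.95 for Epas1, 0.94 for Gpx3 and 0.72 for Bmp6. Lower responses were -2.24 for Dkk2, -1.46 for Ahrr, -1.36 for Vgf, -1.34 for Ctsc, -1.28 for Ptgs2, -1.23 for Peg3, -1.02 for Spp1, -0.95 for Htr2a and -0.77 for Plaur. With 2 libraries a group, single outlying libraries were not sought.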

How the results depend on the processing

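Of 115 named genes 94 were called, 37 in every alternative and 70 in every one that kept all 8 libraries. None of the 94 changed direction in these alternatives, which reuse the same libraries. The 284 calls became 539 (352 higher and 187 lower) with no filter on low counts, 464 (316 and 148) at an adjusted p below 0.1 and 129 (98 and 31) below 0.01. Leaving out 1 library gave 110 to 815 calls, 79 to 470 higher and 31 to 354 lower. It gave 1471 to 3579 calls for the adult response and 1191 to 3094 for the aged one, against 2435 and 2252. The labels do not say whether replicate numbers pair libraries. Correlations of same-numbered deviations were 0.0058 in neonatal, 0.104 in adult and -0.0071 in aged cells, and cannot exclude pairing. The replicate block gave 375 calls, 278 of them among the 284. Calls numbered 284 with DESeq2 size factors, 293 with no scaling, 288 with a stricter filter, 217 with only the 8 libraries, 330 with DESeq2 and 258 with limma-voom. Where a group had 1 library left, it was assumed to vary like the others. The cause of these shifts was not tested. No difference smaller than 0.43 was called at this depth with 2 libraries a group.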
